A study of Mus musculus with 20 samples.

Results

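Heat shock chaperones are the 10 genes Hspa1a, Hspa1b, Hspa8, Hsph1, Hsp90aa1, Hsp90ab1, Dnajb1, Hspd1, Hspe1 and Hspb1, taken by name from a table of 36724 mouse genes. All 10 were found, each in 1 row, and were compared over the 6 groups of a study of Egfl7 in neurospheres. Neurospheres are free-floating clusters that neural stem and progenitor cells form in culture, and Egfl7 codes for an EGF-like protein that cells secrete. Expression was measured by RNA sequencing after capture of exons, in 20 libraries. Values are RPKM, reads scaled by gene length and by the reads of the library. How evenly the capture took up different genes was not measured, so levels and ratios between genes are approximate.

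Molecular chaperones bind unfolded proteins and help them fold or refold. The Hsp70 proteins (Hspa8, made in most cells at all times, and the stress-inducible pair Hspa1a and Hspa1b) take up unfolded clients that J-domain proteins such as Dnajb1 hand to them, and Hsph1, an Hsp110, exchanges their nucleotide. Hsp90aa1 and Hsp90ab1 are the inducible and the constitutive cytosolic Hsp90, which finish the folding of kinases, receptors and other clients. Hspd1 and its lid Hspe1 form the folding chamber of the mitochondrial matrix, and Hspb1 is a small heat shock protein that holds unfolded proteins without ATP. Heat shock factors switch on many of these genes through repeats of GAA and its complement TTC, while several chaperones are also made in step with growth and division.

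All donors were adult C57BL/6 mice, and spheres were untreated. The SVZ knockout group and the SVZ wild-type group hold spheres of the subventricular zone, first sphere round, culture day 3, from male donors, with 3 libraries each. The HC2 knockout group and the HC2 wild-type group hold spheres of the hippocampus, second sphere round, day 5, male donors, with 4 libraries each. The HC1 knockout group and the HC1 wild-type group hold spheres of the hippocampus, first round, day 5, with 3 libraries each; there the knockouts came from male donors and the wild types from female donors, so that genotype and sex cannot be told apart in HC1. The labels call the knockout donors Egfl7 knockouts and give no further description of the allele. Each library of a group has its own mouse number, and some numbers recur between groups. A number shared by a knockout and a wild type marks different animals, as do 2 and 3 in HC2 and HC1 wild types, whose donors differ in sex. Whether number 1 in HC2 and HC1 knockouts, number 4 in SVZ and HC2 knockouts, and numbers 5 and 6 in SVZ and HC2 wild types mark 1 animal each is not stated. Libraries were treated as independent.

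In units of 1000000 reads, the depth worked out from the low values was 11.7 to 13.9 in the SVZ and HC1 libraries and 20.3 to 35.5 in the HC2 libraries, so round and depth cannot be told apart. Egfl7 was listed at 0 in all 7 hippocampal knockout libraries and at 0.566 to 1.59 RPKM in all 7 hippocampal wild-type libraries. Among SVZ spheres, the library labelled knockout replicate 2 had 2.86 RPKM and the one labelled wild-type replicate 3 was at 0, both against the label. All 12 of 12 neural stem and progenitor markers were expressed, against 0 of 8 microglia and macrophage markers, 0 of 5 blood markers, 1 of 6 endothelial markers and 1 of 7 pericyte and fibroblast markers at a minimum of 0.5 RPKM in 3 libraries. The 8 microglia and macrophage markers together reached at most 0.997 RPKM in a library.

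Stretches of 30 bases with the GAA and TTC repeats are shown because they are the known target of heat shock factors and their runs differ in length between some members. They come from RefSeq windows on GRCm38.p6 that run from 250 bases before to 50 bases after an annotated start; 7 of the 10 members had a window there. Capitals mark GAA and TTC units that alternate with 2 bases between them, read 5′ to 3′ on the strand of the gene.
Hspe1: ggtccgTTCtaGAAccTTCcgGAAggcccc
Hsph1: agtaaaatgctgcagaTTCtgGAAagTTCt
Hspb1: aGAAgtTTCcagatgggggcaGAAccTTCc
Hspa1a: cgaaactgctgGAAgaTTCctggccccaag
Hspa1b: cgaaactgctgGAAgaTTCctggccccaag

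The Hspe1 stretch lies at chr1:55088053-55088082 on the plus strand, 95 to 66 bases before the start, and holds a run of 4 units. Hspd1 and Hspe1 are neighbours in opposite directions, and the same run lies in 1 of 2 Hspd1 windows, 144 bases before that start. The Hsph1 stretch lies at chr5:149636287-149636316 on the minus strand, 21 to 50 bases after the start, with a run of 3 units. The Hspb1 stretch is at chr5:135887801-135887830 on the plus strand and holds 2 runs of 2 units. The stretches of Hspa1a, at chr17:34972242-34972271, and of Hspa1b, at chr17:34959324-34959353, both on the minus strand, are the same 30 letters with 1 run of 2 units 104 bases before the start. Neither window of Dnajb1 and no part of the other Hspd1 window held such a run. Of 32851 windows of all genes, 7.86% held GAANNTTC and 8.52% held TTCNNGAA, both of which read the same on the other strand and may overlap in a longer run. A run of at least 2 units was found in 15.1% of windows, of at least 3 in 0.603% and of at least 4 in 0.0244%. A match describes letters only; binding was not measured.

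Hspa1a and Hspa1b are near-identical neighbours on chromosome 17, at 34969359 to 34972156 and 34956429 to 34959238 on the minus strand of GRCm38. Their promoter windows differ at 4 of 300 bases. Their single-exon coding sequences, of 1926 and 1929 bases, share 99.5% of bases in order and 1 unbroken stretch of 638. Reads from such stretches fit both genes, so the division of reads between Hspa1a and Hspa1b is uncertain and their sum is given too. Hspd1 and Hspe1 have 23 and 7 pseudogene copies named after them in RefSeq, and no source used here says how reads that fit several places were counted.

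The members differed widely in level. Hsp90ab1 was the highest, at 1910 ± 263 RPKM in SVZ knockout spheres and 1814 ± 39.1 RPKM in SVZ wild-type spheres (SD, n = 3 each), and Hspa8 came next there, at 817 ± 121 and 762 ± 34.6 RPKM. Hsp90aa1, Hspd1 and Hspe1 averaged between 219.6 and 338 RPKM in both SVZ groups, Hsph1 102 and 96.1 RPKM, and Dnajb1 53.3 and 53.1 RPKM in SVZ knockout and SVZ wild-type spheres. The inducible pair stood far below: Hspa1a averaged 0.296 ± 0.0586 RPKM in SVZ knockout spheres and 0.310 ± 0.0325 RPKM in SVZ wild-type spheres, and Hspa1b 0.241 ± 0.121 and 0.347 ± 0.0386 RPKM (SD, n = 3 each).

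**Figure D1:**
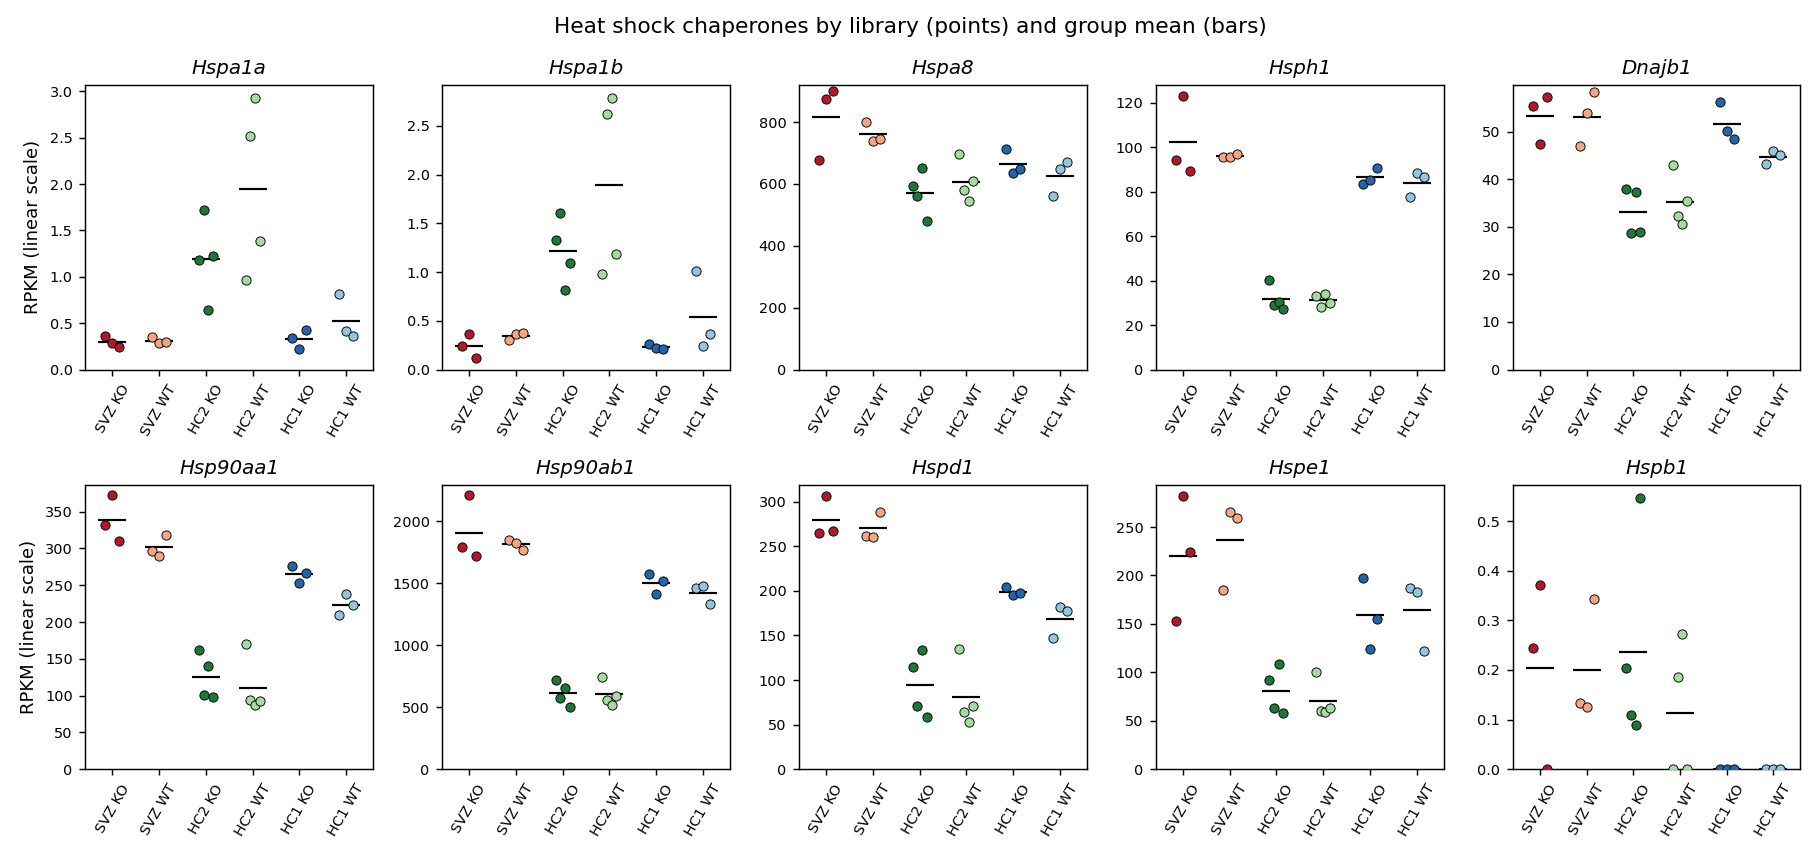
RPKM of each heat shock chaperone in each of the 20 libraries, on a linear axis, with 1 point for a library and a bar for the group mean. Hsph1, Hsp90aa1, Hsp90ab1, Hspd1 and Hspe1 are lowest in the HC2 groups, Hspa1a and Hspa1b are highest there, and Hspb1 is at or near 0 throughout.

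Hspb1 stayed at or near the limit of detection. All 6 HC1 libraries were at 0, and 3 reads, the limit that a count of 0 allows, would be 0.366 to 0.406 RPKM there. The other libraries had 0 to 7 reads, with 0.546 RPKM in HC2 knockout replicate 8 as the highest value. It did not reach 0.5 RPKM in 3 libraries and was not tested, so 9 of 10 members were. Hspa1a and Hspa1b passed that minimum through 9 libraries each, the 8 HC2 libraries and HC1 wild-type replicate 1, so the group in which they are high decided that they were tested.

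A single fit of limma to log2(RPKM + 1) over all 20 libraries, with Benjamini-Hochberg adjustment over 16403 genes and a threshold of 0.05, gave the comparisons, and a gene past the threshold is called. On that scale a change of a gene near 0 is understated. All 9 tested members differed somewhere among the 6 groups by the moderated F test, as did 63.9% of all genes.

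The largest differences lay between sphere rounds. In HC2 spheres, 8 of 9 tested members were called against HC1 spheres in each genotype, 6 lower and 2 higher. The 2 higher ones, Hspa1a and Hspa1b, passed the minimum for testing through the HC2 libraries. The count of 8 and the member median below thus include genes selected by a group under test. Over all genes, 38.3% were called in knockouts, 16.1% higher and 22.3% lower, and 38.2% in wild types, 14.8% higher and 23.4% lower. The median log2 difference of the 9 members was -0.999 in knockouts and -1.06 in wild types, beside -0.05 and -0.08 over all genes. These shares depend on the scale: with RPKM rescaled to the same sum in each library, 1642 genes were higher and 5328 lower in knockouts and the median of all genes was -0.24, and with library medians set equal 3510 were higher and 3019 lower and the median was 0.05. In wild types the numbers were 1474 higher and 5602 lower with a median of -0.26, and 3380 higher and 3030 lower with a median of 0.05. No called member changed its direction under either scale. Together the 10 members took 0.189% ± 0.0294 of all RPKM in HC2 knockout spheres, against 0.418% ± 0.0241 in HC1 knockout spheres, and 0.188% ± 0.0317 in HC2 wild-type spheres, against 0.389% ± 0.0169 in HC1 wild-type spheres (SD, n = 4 and 3 each). Round and depth differ together in both genotypes, and in wild types donor sex as well, so these cannot be told apart. No source used here says whether both rounds were sequenced and counted in the same way.

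Some markers of other cell types were called in the same comparison. Of 6 oligodendrocyte markers, 4 were called lower in HC2 in knockouts and 2 in wild types, beside 22.3% and 23.4% of all genes. The median log2 differences of the 6 were -1.22 and -0.54, and none of these markers was at 0 in a whole group. Their summed level was 130 to 310 RPKM in HC2 knockout spheres, against 243 to 396 RPKM in HC1 knockout spheres, and 139 to 386 RPKM in HC2 wild-type spheres, against 213 to 598 RPKM in HC1 wild-type spheres. Of 6 astrocyte markers, 1 was called higher in each genotype, Slc1a2, beside 16.1% of all genes in knockouts and 14.8% in wild types. The medians of these markers were 0.51 in knockouts and 0.65 in wild types. Their sum was 707 to 1940 RPKM in HC2 knockout spheres, against 724 to 782 RPKM in HC1 knockout spheres, and 439 to 2270 RPKM in HC2 wild-type spheres, against 669 to 1518 RPKM in HC1 wild-type spheres. The astrocyte marker Aldh1l1 had a lower mean in HC2, at 366 against 421 RPKM in knockouts and 374 against 474 RPKM in wild types. Of 12 neural stem and progenitor markers, 1 was higher and 2 lower in knockouts, and 2 higher and 2 lower in wild types. Of 6 neuron markers, 1 was lower in each genotype. The part of these cell types in the chaperone differences was not tested.

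Hsph1, the Hsp110 that recycles Hsp70, showed the largest decrease among the members. It had 40.4, 29.1, 30.2 and 27.3 RPKM in HC2 knockout spheres, against 83.5, 85.3 and 90.7 RPKM in HC1 knockout spheres. It had 33.0, 28.2, 33.9 and 30.0 RPKM in HC2 wild-type spheres, against 77.4, 88.3 and 86.6 RPKM in HC1 wild-type spheres. Every HC2 library was below every HC1 library, with a wide gap between them. The log2 difference was -1.43 (SE 0.13, limma adjusted p = 1.12e-07) in knockouts and -1.40 (SE 0.13, adjusted p = 1.49e-07) in wild types.

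Both cytosolic Hsp90 genes fell. Hsp90ab1, the constitutive form, had 719, 574, 656 and 506 RPKM in HC2 knockout spheres, against 1575, 1413 and 1517 RPKM in HC1 knockout spheres. In HC2 wild-type spheres it had 742, 559, 517 and 595 RPKM, against 1459, 1482 and 1336 RPKM in HC1 wild-type spheres. The groups did not overlap, and the log2 difference was -1.30 (SE 0.14, limma adjusted p = 9.69e-07) in knockouts and -1.25 (SE 0.14, adjusted p = 1.51e-06) in wild types.

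Hsp90aa1, the inducible form, had 162, 101, 140 and 97.9 RPKM in HC2 knockout spheres, against 276, 253 and 267 RPKM in HC1 knockout spheres. It had 170, 94.1, 87.4 and 92.4 RPKM in HC2 wild-type spheres, against 210, 238 and 224 RPKM in HC1 wild-type spheres. The groups stood apart, although HC2 wild-type replicate 2 lay much closer to HC1 than the other HC2 wild-type libraries. The log2 difference was -1.11 (SE 0.20, limma adjusted p = 0.000296) in knockouts and -1.06 (SE 0.20, adjusted p = 0.000469) in wild types. The constitutive form exceeded the inducible one by 4.36 to 6.95 times in every library.

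The mitochondrial pair fell by similar amounts. Hspd1 had 115, 70.7, 133 and 59.0 RPKM in HC2 knockout spheres, against 204, 195 and 197 RPKM in HC1 knockout spheres. It had 135, 64.3, 52.8 and 71.1 RPKM in HC2 wild-type spheres, against 147, 182 and 177 RPKM in HC1 wild-type spheres. The HC2 libraries spread widely within each genotype and stayed below HC1. The log2 difference was -1.14 in both genotypes (SE 0.27, limma adjusted p = 0.00291 in knockouts and 0.00292 in wild types).

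Hspe1, the lid of the chamber, had 91.9, 62.7, 109 and 58.1 RPKM in HC2 knockout spheres, against 198, 124 and 155 RPKM in HC1 knockout spheres. It had 101, 60.2, 58.6 and 63.5 RPKM in HC2 wild-type spheres, against 187, 183 and 122 RPKM in HC1 wild-type spheres. Neither pair of groups overlapped. The difference came to -0.999 on the log2 scale (SE 0.27, limma adjusted p = 0.00675) in knockouts and -1.21 (SE 0.27, adjusted p = 0.00168) in wild types. Within a library Hspd1 stood at 0.789 to 1.73 times Hspe1.

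The Hsp70 cycle did not move as 1 unit. Hspa8, its constitutive member, had 593, 562, 650 and 479 RPKM in HC2 knockout spheres, against 712, 635 and 648 RPKM in HC1 knockout spheres, and 695, 581, 546 and 608 RPKM in HC2 wild-type spheres, against 562, 649 and 669 RPKM in HC1 wild-type spheres. The groups overlapped in both genotypes, and the log2 differences of -0.23 (95% interval -0.49 to 0.04) in knockouts and -0.05 (-0.31 to 0.22) in wild types were not called. With RPKM rescaled to the same sum in each library, the difference in knockouts became -0.45 and was called (limma adjusted p = 0.0102). Hsph1 stood at 5.58% ± 0.919 of Hspa8 in HC2 knockout spheres, against 13.1% ± 1.18 in HC1 knockout spheres, and at 5.19% ± 0.683 in HC2 wild-type spheres, against 13.4% ± 0.440 in HC1 wild-type spheres (SD, n = 4 and 3 each).

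Dnajb1, the J-domain partner, had 37.9, 28.7, 37.3 and 28.9 RPKM in HC2 knockout spheres, against 56.1, 50.0 and 48.5 RPKM in HC1 knockout spheres. It had 42.9, 32.2, 30.6 and 35.5 RPKM in HC2 wild-type spheres, against 43.3, 45.9 and 45.0 RPKM in HC1 wild-type spheres. The groups did not overlap, but in wild types the highest HC2 library nearly reached the lowest HC1 library. On the log2 scale the difference was -0.63 (SE 0.13, limma adjusted p = 0.000891) in knockouts and -0.34 (SE 0.13, adjusted p = 0.0429) in wild types. The call in wild types held in 16 of 32 settings, with adjusted p between 0.00211 and 0.517, and was lost, among others, when any 1 of the 3 HC1 wild-type libraries was left out, at 0.0658, 0.113 and 0.0988 for replicates 1, 2 and 3.

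The inducible pair went the other way from a very low level, and both genes were tested only through their values in HC2. Hspa1a had 1.18, 1.72, 0.643 and 1.23 RPKM in HC2 knockout spheres, against 0.344, 0.222 and 0.425 RPKM in HC1 knockout spheres. It had 0.963, 2.52, 2.93 and 1.39 RPKM in HC2 wild-type spheres, against 0.812, 0.411 and 0.361 RPKM in HC1 wild-type spheres. Neither pair of groups overlapped. These values rest on 44 to 165 reads in the HC2 libraries and 5 to 20 reads in the SVZ and HC1 libraries. The log2 difference was 0.70 (SE 0.21, limma adjusted p = 0.0126) in knockouts and 0.91 (SE 0.21, adjusted p = 0.00223) in wild types, and the mean RPKM was 3.61 and 3.70 times higher. In knockouts the call was lost without HC1 knockout replicate 2 (adjusted p = 0.0523).

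Hspa1b had 1.33, 1.61, 0.817 and 1.10 RPKM in HC2 knockout spheres, against 0.258, 0.222 and 0.212 RPKM in HC1 knockout spheres. It had 0.979, 2.62, 2.79 and 1.18 RPKM in HC2 wild-type spheres, against 1.01, 0.246 and 0.361 RPKM in HC1 wild-type spheres. The knockout groups stood apart, while HC1 wild-type replicate 1 lay above the lowest HC2 wild-type library. The log2 difference was 0.83 (SE 0.21, limma adjusted p = 0.00533) in knockouts and 0.88 (SE 0.21, adjusted p = 0.00362) in wild types. The call in wild types was lost when only the 2 groups compared were fitted (adjusted p = 0.0635). The sum of both genes was higher by 1.10 (limma adjusted p = 0.00306) in knockouts and 1.19 (adjusted p = 0.00173) in wild types on the log2 scale. This sum does not depend on how reads were divided between the genes. It does depend on whether shared reads were dropped or counted for both, which is not given. Adding 1 RPKM understates a change less for the larger sum, so these values do not show a larger change than the single genes.

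As a share of Hspa8, the inducible pair together stood at 0.431% ± 0.154 in HC2 knockout spheres, against 0.0842% ± 0.0142 in HC1 knockout spheres. In HC2 wild-type spheres it stood at 0.659% ± 0.366, against 0.178% ± 0.127 in HC1 wild-type spheres (SD, n = 4 and 3 each). In the HC2 library with the highest share, it came to 1.05% of Hspa8.

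**Figure D2:**
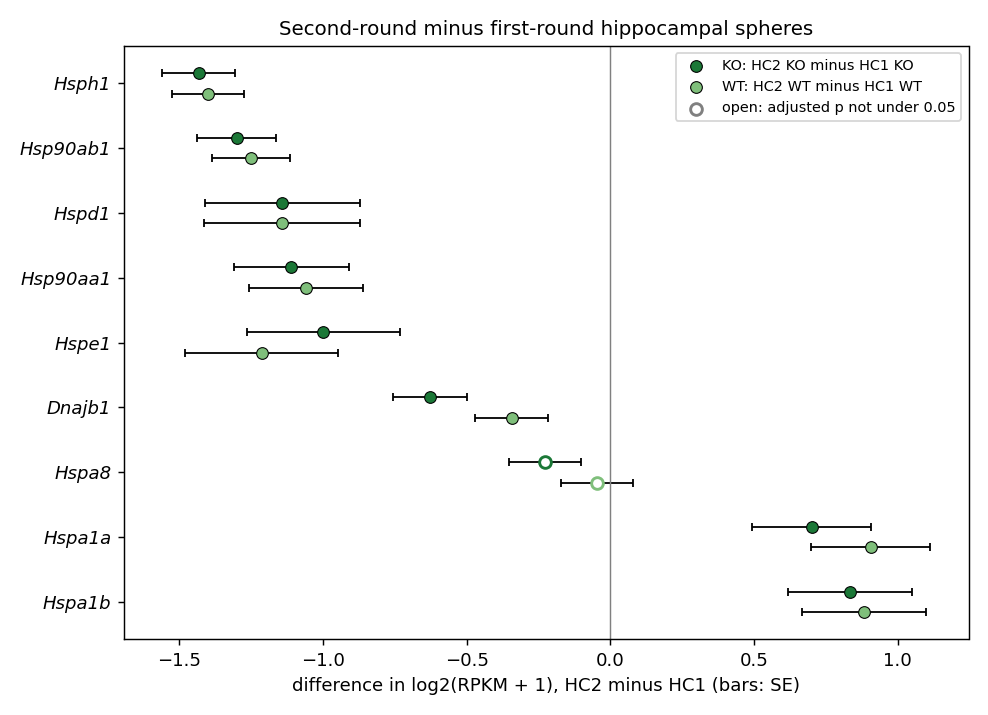
Log2 difference of each tested chaperone between HC2 and HC1 spheres, for knockouts and wild types, with bars for the standard error of the limma fit and filled points for calls. Hsph1 lies lowest, at -1.43 in knockouts and -1.40 in wild types, Hspa8 lies near 0, and Hspa1a and Hspa1b lie above 0.

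Other chaperone genes were described by list, as numbers called of those tested. Over all genes, 22.3% were lower and 16.1% higher in knockouts, and 23.4% lower and 14.8% higher in wild types. On the deposited scale, some lists had no larger share lower than all genes. These were the mitochondrial list and the list of other small heat shock proteins in both genotypes. In wild types they were also the TRiC and prefoldin list and the endoplasmic reticulum list. No gene of the lists of other Hsp70 and Hsp110 genes, J-domain proteins and Hsp70 co-chaperones, Hsp90 co-chaperones, or the TRiC and prefoldin folding complexes of the cytosol was called higher in HC2 in either genotype, although equal library medians gave 1 higher gene among the J-domain and among the other Hsp70 genes in each genotype and among the Hsp90 co-chaperones in wild types. With the cell cycle mean of 40 genes as a covariate, 2 J-domain genes were higher in each genotype, as were 1 TRiC or prefoldin gene in knockouts and 2 in wild types. Among 17 J-domain proteins and Hsp70 co-chaperones, 6 were lower in each genotype, and 10 in each with RPKM rescaled. Dnaja1, a J-domain partner of Hspa8, averaged 54.0 ± 1.11 RPKM in HC2 knockout spheres, against 186 ± 5.47 RPKM in HC1 knockout spheres (SD, n = 4 and 3; log2 difference -1.76, limma adjusted p = 1.17e-10), and its log2 difference in wild types was -1.67. Dnajb6, another J-domain protein, differed by -1.22 in knockouts and -1.20 in wild types.

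Of 12 Hsp90 co-chaperones, 6 were lower in knockouts and 5 in wild types, against 9 and 7 with RPKM rescaled and 5 and 3 with equal medians. Ptges3, which encodes the p23 co-chaperone, averaged 2.20 ± 0.999 RPKM in HC2 knockout spheres, against 50.1 ± 4.12 RPKM in HC1 knockout spheres, and 1.79 ± 0.219 RPKM in HC2 wild-type spheres, against 42.4 ± 3.42 RPKM in HC1 wild-type spheres (SD, n = 4 and 3 each). Its log2 differences of -4.05 and -3.96 (limma adjusted p = 4.62e-10 and 5.85e-10) were larger than those of the tested members. RefSeq lists 1 pseudogene named after each of Ptges3, Dnaja1 and Dnajb6, and how reads that fit several places were counted in either round is not given, so these values are uncertain. Ppid, a cyclophilin that binds Hsp90, differed by -1.60 in knockouts and -1.49 in wild types. Among 14 TRiC and prefoldin subunits, 4 were lower in knockouts and 3 in wild types, and all but Cct3, in knockouts, were prefoldin subunits; with RPKM rescaled, 11 and 10 were lower, and with equal medians 2 and 2. Pfdn2 differed by -1.70 in knockouts and -1.91 in wild types, and Pfdn5 by -0.86 in both.

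Among 8 other Hsp70 and Hsp110 genes, 3 were lower in each genotype; 4 in knockouts and 5 in wild types were with RPKM rescaled, and 2 and 1 with equal medians. Hspa13, an Hsp70-like protein of microsomes, averaged 31.2 ± 2.53 RPKM in HC2 knockout spheres, against 46.2 ± 1.65 RPKM in HC1 knockout spheres, with log2 differences of -0.55 in knockouts and -0.37 in wild types (limma adjusted p = 0.00255 and 0.0328). Of 8 other small heat shock proteins, 5 were tested and 1 was called: Hspb6 was lower in wild types, at -1.37. Of 6 heat shock factors and regulators, 3 were tested, and Hsf2 was lower by a small amount, at -0.30 in knockouts and -0.31 in wild types; with equal medians it was not called lower.

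Organelle chaperones went both ways. Of 15 further mitochondrial chaperones and proteases, 7 were higher and 3 lower in knockouts, and 6 higher and 2 lower in wild types. With RPKM rescaled this became 2 higher and 4 lower in knockouts and 0 higher and 4 lower in wild types, so the direction of the list rests on the scale; Lonp1 and, in wild types, Clpb were then not called. Clpb averaged 52.6 ± 5.54 RPKM in HC2 knockout spheres, against 34.3 ± 1.30 RPKM in HC1 knockout spheres, with log2 differences of 0.60 in knockouts and 0.55 in wild types. Lonp1, a matrix protease, differed by 0.35 and 0.29, and Grpel2, a nucleotide exchange factor of mitochondrial Hsp70, by -0.72 and -0.54. On the deposited scale the list thus held rises beside the decreases of Hspd1 and Hspe1.

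Of 18 chaperones of the endoplasmic reticulum, 3 were higher and 5 lower in knockouts, and 8 higher and 1 lower in wild types. With RPKM rescaled these were 2 higher and 6 lower in knockouts and 1 higher and 4 lower in wild types, while equal medians gave 4 higher and 2 lower in knockouts and 8 higher and 1 lower in wild types, so the balance in knockouts turns with the scale. Sil1, a nucleotide exchange factor of Hspa5, averaged 39.4 ± 3.34 RPKM in HC2 knockout spheres, against 17.5 ± 0.647 RPKM in HC1 knockout spheres (SD, n = 4 and 3), with log2 differences of 1.12 and 0.92 (limma adjusted p = 1.91e-08 in knockouts and 2.08e-07 in wild types). Pdia3, a disulfide isomerase, differed by -1.02 and -0.91. Hspa5, the Hsp70 of that compartment, was lower in knockouts at -0.52 (adjusted p = 0.0282).

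**Figure D3:**
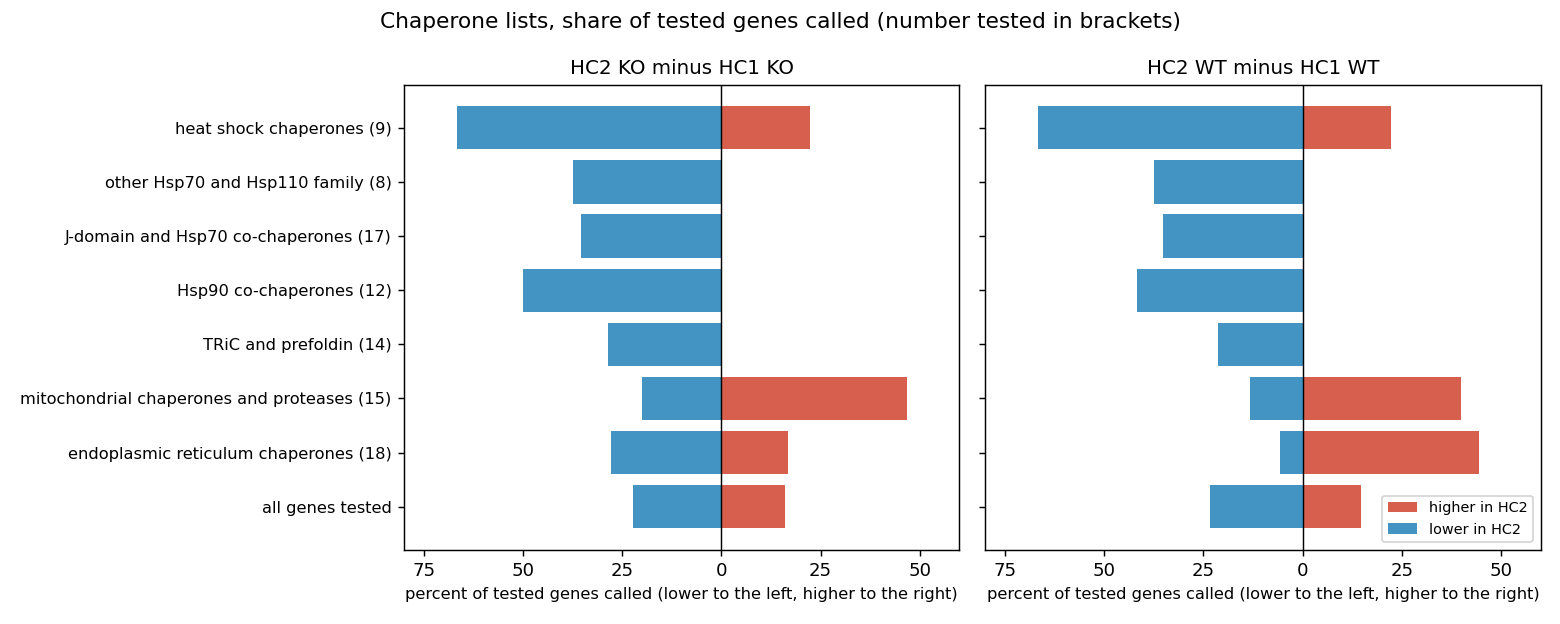
Share of tested genes called higher (to the right) and lower (to the left) in HC2 against HC1 spheres for the members, 6 other chaperone lists and all genes, in knockouts and wild types, on the deposited scale. The lists of other Hsp70 and Hsp110 genes, J-domain and Hsp70 co-chaperones, Hsp90 co-chaperones, and TRiC and prefoldin hold only decreases there. The members hold 2 increases, and the mitochondrial and endoplasmic reticulum lists hold both directions. With RPKM rescaled the mitochondrial list has 2 higher and 4 lower in knockouts and 0 higher and 4 lower in wild types.

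Transcripts of 40 cell cycle genes were followed as the mean of their log2(RPKM + 1). In bulk RNA, fewer dividing cells and less RNA per cell cannot be told apart. The mean was 5.59, 3.95, 5.67 and 3.51 in HC2 knockout spheres, against 5.86, 5.57 and 6.06 in HC1 knockout spheres, and 5.87, 2.71, 1.68 and 3.66 in HC2 wild-type spheres, against 4.71, 5.76 and 5.60 in HC1 wild-type spheres. Of the 40 genes, 5 were called lower in HC2 in knockouts and 22 in wild types, beside 22.3% and 23.4% of all genes. HC2 libraries therefore covered a wide range, with 3 of them as high as HC1.

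Within the 8 HC2 libraries, a fit of each gene on that mean with genotype as a covariate called 6 of 9 members, 5 with a positive and 1 with a negative slope. Over all genes 23.3% were called, 15.4% positive and 7.88% negative. Hspd1 had the steepest slope, 0.37 log2 units for each log2 unit of the cell cycle mean (SE 0.04, limma adjusted p = 0.00106), followed by Hsp90aa1 at 0.25 (adjusted p = 0.00629), Hspe1 at 0.24 (adjusted p = 0.00890), Hsp90ab1 at 0.14 (adjusted p = 0.0154) and Dnajb1 at 0.14 (adjusted p = 0.0158). Hspa1a had a slope of -0.23 (adjusted p = 0.0302), so it was higher where cell cycle genes were low. This call was lost without HC2 knockout replicate 4 or 7 (limma adjusted p = 0.0569 and 0.0678) and with no filter (0.0536). It was also lost without HC2 wild-type replicate 2, 3 or 5 (limma adjusted p = 0.220, 0.0617 and 0.0816). The call of Hsp90ab1 was lost with RPKM rescaled (limma adjusted p = 0.0513) and that of Dnajb1 without genotype as a covariate (0.0797). Hspa8 at 0.10 (adjusted p = 0.0542), Hspa1b at -0.20 (adjusted p = 0.0743) and Hsph1 at 0.05 (adjusted p = 0.507) were not called.

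HC2 wild-type replicate 2, the library with the highest cell cycle mean in HC2, decided most of these calls. Without it, 1 of 9 members was called, Hspd1, beside 4.44% of all genes, while the slopes of Hsp90aa1, Hspe1, Hsp90ab1, Dnajb1 and Hspa1a were 0.21, 0.27, 0.16, 0.16 and -0.24. Astrocyte markers moved along the same axis in the other direction. With all 8 HC2 libraries, 4 of 6 had a called negative slope, beside 7.88% of all genes, led by Gfap at -2.07. The summed level of the 6 ranged from 707 to 1940 RPKM in HC2 knockout spheres and from 439 to 2270 RPKM in HC2 wild-type spheres. None of the 6 was at 0 in a group. The part of astrocyte-like cells in the slopes was not tested.

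**Figure D4:**
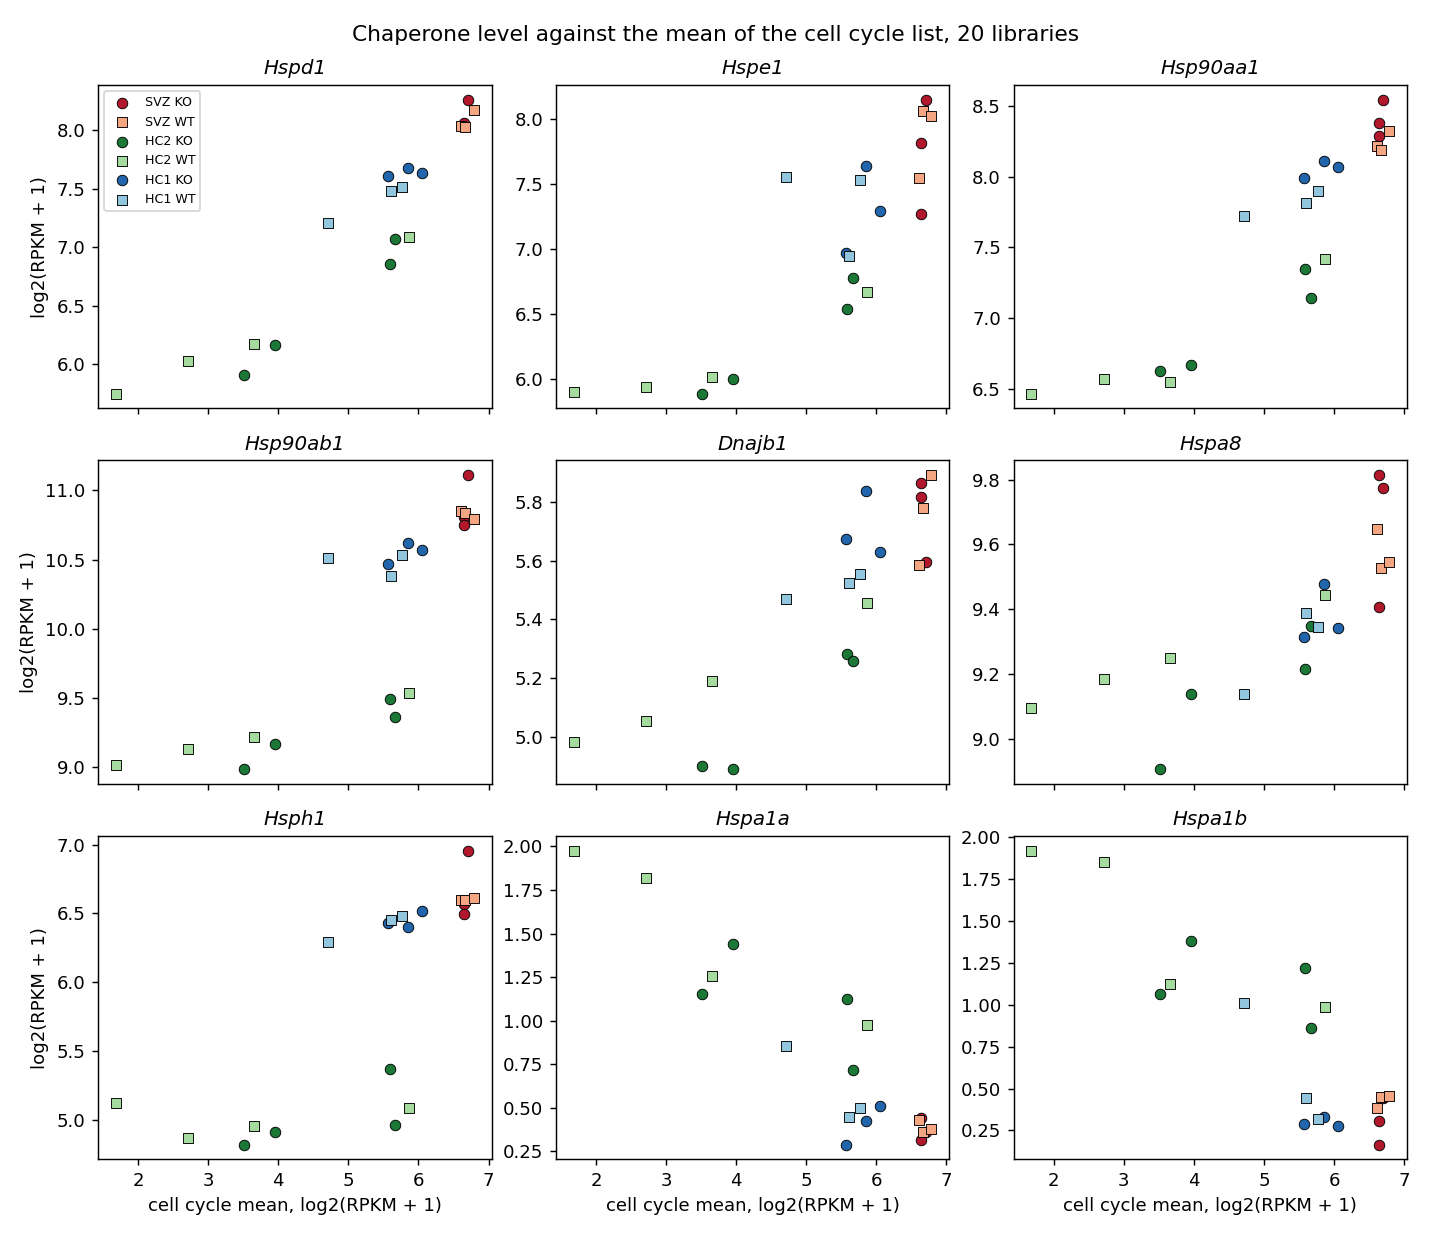
Log2(RPKM + 1) of chaperones against the mean log2(RPKM + 1) of 40 cell cycle genes, with 1 point for each of the 20 libraries. Hspd1 follows the cell cycle mean across the HC2 libraries. Hsph1, Hsp90ab1 and Hspd1 all lie lower in HC2 than in HC1 at a similar cell cycle mean.

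HC2 knockout replicates 1 and 7 and HC2 wild-type replicate 2 had cell cycle means within the HC1 range. Hsph1 stood at 40.4, 30.2 and 33.0 RPKM in them, against 77.4 to 90.7 RPKM in the HC1 libraries. Hsp90ab1 had 719, 656 and 742 RPKM, against 1336 to 1575 RPKM in HC1. Hspd1 had 115, 133 and 135 RPKM, against 147 to 204 RPKM. Hspa8 had 593, 650 and 695 RPKM, within the 562 to 712 RPKM of HC1. With the cell cycle mean as a covariate over all 20 libraries, the round difference of Hsph1 was -1.37 in knockouts and -1.29 in wild types and that of Hsp90ab1 at -1.15 and -0.996, all called. Hspd1 came to -0.72 and -0.46 and Hsp90aa1 to -0.83 and -0.59, smaller and still called. Dnajb1 in wild types came to -0.09 (limma adjusted p = 0.517) and Hspa1b in wild types to 0.48 (adjusted p = 0.0538), neither called. In the same fit the F test over the 6 groups called 6 of 9 members, without Hspa8 (adjusted p = 0.111), Hspa1b (0.0550) and Hspa1a (0.0663).

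Other chaperone lists had positive slopes too, beside 15.4% of all genes called positive. Of 14 TRiC and prefoldin subunits, 12 were called positive, with Tcp1 at 0.25 (limma adjusted p = 0.00337) and Cct8 at 0.24 (adjusted p = 0.00608), both subunits of the TRiC ring. Of 12 Hsp90 co-chaperones 6 were positive, as were 6 of 15 mitochondrial genes, led by Hspa9 at 0.22 (adjusted p = 0.00577), the Hsp70 of the matrix. Hspa2, another Hsp70, had a negative slope of -0.39 (adjusted p = 0.00175). Without HC2 wild-type replicate 2, 0 genes of these TRiC and prefoldin, Hsp90 co-chaperone and mitochondrial lists were called positive or negative.

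No tested member was called between Egfl7 knockout and wild type. In each of SVZ, HC1 and HC2 spheres and over HC1 and HC2 together, limma called 0 of 9 members, and 0 of 9 had an unadjusted p under 0.05. Over all genes, 0.0122% were called in the SVZ, 0.0122% in HC1, 0.0244% in HC2 and 0.0305% over HC1 and HC2, with 379, 646, 644 and 970 genes at an unadjusted p under 0.05. No alternative called a member in these comparisons. The difference between the knockout effects in SVZ and HC2 called 0 of 9 members (0.0305% of all genes), as did that between HC1 and HC2 (0.0244% of all genes), and none had an unadjusted p under 0.05.

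The intervals show what size of change the data allow if all 6 groups share 1 spread, as the fit assumes. For Hspd1 the SD of log2(RPKM + 1) was 0.55 in HC2 knockout and 0.58 in HC2 wild-type spheres, against 0.03 and 0.17 in HC1. For Hspa1a it was 0.30 and 0.47 in HC2, against 0.11 and 0.22 in HC1. For such members the HC2 intervals are too narrow and the HC1 intervals too wide. In HC2, with the most libraries, the knockout minus wild-type difference was -0.09 (95% interval -0.34 to 0.15) for Hspa8, 0.01 (-0.24 to 0.25) for Hsph1, 0.03 (-0.24 to 0.29) for Hsp90ab1 and -0.09 (-0.34 to 0.16) for Dnajb1. Intervals were wider for Hspd1, at 0.24 (-0.29 to 0.77), Hspe1, at 0.17 (-0.35 to 0.69), and Hsp90aa1, at 0.19 (-0.20 to 0.58). A miss of the threshold does not show that knockout and wild type have equal levels.

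In HC2, Hspa1a came nearest to the threshold. It averaged 1.19 ± 0.439 RPKM in HC2 knockout spheres and 1.95 ± 0.929 RPKM in HC2 wild-type spheres (SD, n = 4 each), with overlapping libraries. The log2 difference was -0.40 (95% interval -0.80 to 0.01, limma adjusted p = 0.988). Hspa1b averaged 1.21 ± 0.336 RPKM in HC2 knockout spheres and 1.89 ± 0.942 RPKM in HC2 wild-type spheres, at -0.34 (-0.76 to 0.08). All 40 cell cycle genes had higher fitted values in HC2 knockout spheres, with a median log2 difference of 1.28 and 0 of 40 called. With the cell cycle mean as a covariate the difference of Hspa1a in HC2 was -0.12 and that of Hspa1b -0.08.

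In HC1, all 3 knockout libraries were above all 3 wild-type libraries for Hspd1 (log2 difference 0.24), Hsp90aa1 (0.24) and Dnajb1 (0.20), none of them called (limma adjusted p = 0.976 each). These are 3 of 9 members, beside 6.63% of all genes with every HC1 knockout library above every HC1 wild-type library. Donor sex differs along with genotype in this pair. All 40 cell cycle genes also had higher fitted values in HC1 knockout spheres, with a median log2 difference of 0.47 and 0 of 40 called. In the SVZ the members' differences lay between -0.13 for Hspe1 and 0.16 for Hsp90aa1. No gene of the 8 other chaperone lists was called between knockout and wild type in SVZ, HC1 or HC2 spheres.

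**Figure D5:**
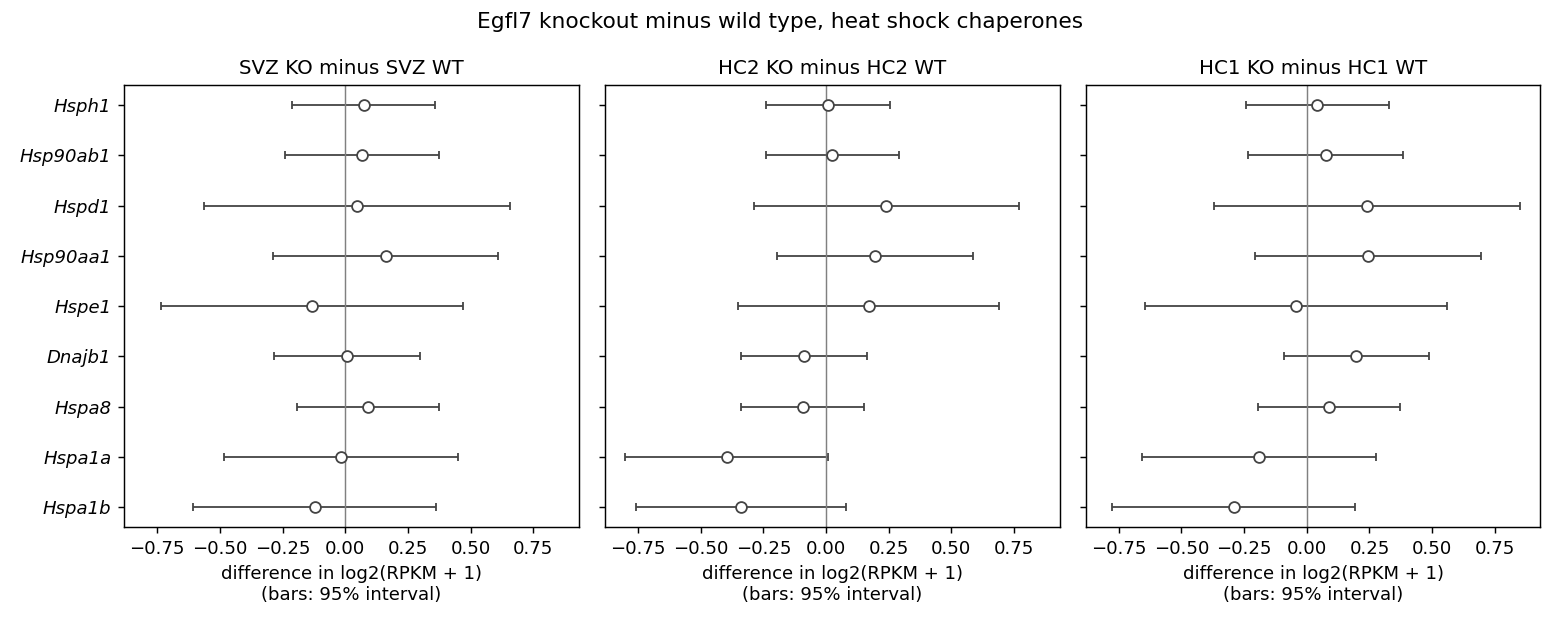
Log2 difference of each tested chaperone between knockout and wild-type spheres in the SVZ, HC2 and HC1, with bars for the 95% interval of the limma fit. Every interval includes 0, and the widest lie at Hspd1 and Hspe1.

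SVZ spheres, with a cell cycle mean of 6.61 to 6.79, held the highest mean levels of 7 members, although none was called against HC1. In the SVZ minus HC1 comparison limma called 0 of 9 members in knockouts and 0 of 9 in wild types, beside 7.06% and 17.2% of all genes. At an unadjusted p under 0.05, 2 of 9 were found in knockouts, Hspa8 and Hsp90ab1, and 3 of 9 in wild types, those and Hspd1, beside 25.8% and 35.2% of all genes. The members' shares were thus no higher than those of all genes. Hsp90ab1 had 1795, 2211 and 1724 RPKM in SVZ knockout spheres, against the 1413 to 1575 RPKM of HC1 knockout spheres. In SVZ wild-type spheres it had 1847, 1826 and 1771 RPKM, against 1336 to 1482 RPKM in HC1 wild-type spheres. The groups did not overlap, with log2 differences of 0.34 (SE 0.15, limma adjusted p = 0.155) and 0.35 (SE 0.15, adjusted p = 0.101).

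Hspd1 had 265, 306 and 267 RPKM in SVZ knockout spheres, against 195 to 204 RPKM in HC1 knockout spheres, and 262, 260 and 288 RPKM in SVZ wild-type spheres, against 147 to 182 RPKM in HC1 wild-type spheres. The log2 differences were 0.49 (limma adjusted p = 0.303) and 0.68 (adjusted p = 0.108). Calls of 2 or 3 of the members Hspd1, Hsp90aa1 and Hsp90ab1 appeared when only the 2 groups compared were fitted or libraries were weighted. Culture day differs along with region here, and donor sex in wild types. Among Hsp90 co-chaperones, 2 of 12 were higher in SVZ knockout spheres and 3 of 12 in SVZ wild-type spheres, beside 432 and 1072 of 16403 genes. Cdc37, which brings kinases to Hsp90, differed by 0.65 and 0.61.

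Over the 6 groups the mean levels of Hsph1, Hsp90aa1, Hsp90ab1 and Hspd1 ran in 1 order, with SVZ knockout highest, then SVZ wild type, HC1 knockout, HC1 wild type and the HC2 groups. For Hsph1 and Hsp90ab1 the libraries of SVZ knockout and SVZ wild type overlapped, as did those of HC1 knockout and HC1 wild type and those of HC2 knockout and HC2 wild type. There was no overlap between the neighbours SVZ wild type and HC1 knockout or between the neighbours HC1 wild type and HC2 knockout. For Hspa1a the order began with HC2 wild type and HC2 knockout, and each neighbour in the order overlapped the next.

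The genes most like each member in pattern were found as the highest Pearson r of log2(RPKM + 1) over the 20 libraries among 11725 genes. These libraries fall into groups and share depth within a round, so r describes the pattern of groups as much as that of single libraries, and no test was made. Hspd1 was most like E2f8 (r = 0.994), Rbbp7 and Usp1. Hsph1 was most like Setd1a (r = 0.991), Ubap2l and Srrm1, Hsp90ab1 like Ncl (r = 0.993), Rpl24 and Rbm3, and Hsp90aa1 like Banf1 (r = 0.990), Calm2 and Eif2s1. Dnajb1 was most like Tagap (r = 0.961), Hspe1 like Rpl27 (r = 0.963) and Hspa8 like Cand1 (r = 0.936). Hspa1a was most like Numbl (r = 0.965), Fam19a5 and Atxn1, and Hspa1b like Fam19a5 (r = 0.963), Sox21 and Id4.

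Among the members themselves, Hspa1a and Hspa1b had r = 0.978 over the 20 libraries and 0.918 for deviations from group means; how reads that fit both genes were counted is not given. Hsp90aa1 and Hspd1 had r = 0.986 and, for deviations, 0.938, while Hsph1 and Hspd1 had 0.911 and 0.444. So Hsph1 followed Hspd1 between groups and less closely within them.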

How the data were processed

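Expression values are RPKM as the authors deposited them, linear and per gene by the file headers, with an empty field read as 0. Per the labels' protocols, stranded libraries were made from RNA without ribosomal RNA, then enriched for exons and sequenced from both ends. Per the submitters' processing notes, tools included FastQC 0.11.5 and DESeq2, with the build mm10 or GRCm38; no source used here names the aligner, the counter or the use of strand. Depth was worked out from low values: 50.4% to 55.8% of them gave whole reads, within 0.05, with coding length, against 9.2% to 12.8% with exon length. No count model was fitted to RPKM. The limit for a count of 0 is 3 reads and covers counting error only.

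Genes that reached 0.5 RPKM in 3 or more of 20 libraries (16403, or 44.7% of the table) were fitted as log2(RPKM + 1) with limma 3.58.1 in R 4.3.3 (1 mean for each of 6 groups, eBayes with trend and robust). Tests are two-sided, with Benjamini-Hochberg adjustment over those genes. The p-values measure the spread between libraries with separate mouse numbers. The slope on the cell cycle mean used the 8 HC2 libraries with genotype as a covariate. The fit was tested on simulated data.

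All 10 members are named. Of the other chaperone lists up to 3 called genes for each direction and comparison, those of smallest adjusted p, could be named, and Cct3 was named after its value was seen. The 3 genes most like each member exclude predicted genes, small RNA genes and pseudogenes and have a mean of at least 1 RPKM. Members, lists, tests and alternatives were chosen with earlier results of these data known. Ratios between members were chosen after values were seen. Alternatives covered pseudocount, low-value filter, scaling, summing Hspa1a and Hspa1b, library weights, variance model, groups fitted, covariates, the pair of SVZ libraries that go against their label, the replicate block and leaving out each library.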

Additional observations from a re-analysis of the deposited data

Results flagged for a closer look

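In HC2 wild-type spheres 1 library lay far above the other 3 for a pair of members. Hsp90aa1 reached 170.32 RPKM in HC2 wild-type replicate 2, against 87.4 to 94.1 RPKM in the others. Hspe1 reached 100.65 RPKM in the same library, against 58.6 to 63.5 RPKM in the others. In both, the gap to the nearest library, as a share of the range, was above the 95% critical value of Dixon's test for 4 libraries. Of 20 groups of 4 tested, chance flags about 1 in 20. That library also had the highest cell cycle mean of the HC2 libraries, 5.87; the part of this in the values was not tested.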

How the results depend on the processing

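No called value changed its sign under any alternative. The members called in HC2 against HC1 numbered 7 to 9 in knockouts and, apart from the mouse-number block, 6 to 8 in wild types, and in the comparisons of knockout with wild type none was called in any. In SVZ knockouts against HC1 knockouts, where the count was 0, library weights called 3 members and a fit of only the groups compared called 2. In SVZ wild types against HC1 wild types, also 0, shifting library medians called 1, library weights 3, only the groups compared 3 and the replicate block 1; leaving out a library gave 0 to 2, with 2 without HC2 wild-type replicate 2. For the slope in HC2, 6 in full, leaving out a library gave 1 to 6, with 1 without HC2 wild-type replicate 2. Of 14 TRiC and prefoldin genes, lower in HC2 in 4 knockout and 3 wild-type calls, rescaled RPKM called 11 and 10 lower. The cause of these changes was not tested. Among single members, 20 calls were lost when a library was left out and 18 under other settings, with 2 and 18 gained. Same-numbered libraries had correlations of deviations from group means of -0.26 to 0.05. With 3 libraries a group, such correlations can neither show nor exclude a pairing. HC2 knockout and wild-type libraries share no number. Libraries of a genotype that share a mouse number had -0.25 to 0.24. A replicate block on mouse number for HC2 against HC1 wild types, chosen after seeing the data, left 1 residual degree of freedom and called 0 members and 9 of 16403 genes; the 2 numbers shared there belong to donors of different sex. In knockouts only 1 number is shared and no such block was possible. Depth limits Hspa1a, Hspa1b and Hspb1, which rest on few reads, and 3 or 4 libraries a group limit the intervals of Hspd1 and Hspe1.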
